A study of Mus musculus with 26 samples.

Results

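The genes described here code for the proteins of the cytosolic ribosome, the machine that translates the messenger RNA of the cell nucleus, and their RNA was measured by sequencing of mouse striatum. They were picked by symbol: a gene belongs when its symbol is Rpl or Rps followed by a number (with or without a closing letter a, x, y or l and further digits), or is Rplp0, Rplp1, Rplp2 or Rpsa. They are 80 of 14833 symbols listed in any of the 5 tables the authors deposited, and 74 of them are listed in all 5. The other members miss 1 or more tables: Rpl24, Rpl28, Rpl36, Rpl36a, Rps12 and Rps28. By role they are 31 genes of the small subunit, 42 of the large subunit, 3 of the P stalk and 4 paralogs. The symbol alone decided, so no expression value chose a member. 

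Each table compares a pair of groups. R6/1 mice, which carry exon 1 of the human huntingtin gene as a transgene under its human promoter, were compared with wild type at 4 weeks and at 8 weeks of age, with 3 libraries per group. CHL2 mice, the other Huntington's disease model named in the labels, were compared with wild type at 1 year, also with 3 libraries per group. At 10 weeks of age, R6/1 mice given a control adeno-associated virus (AAV), called mCherry in the tables, were compared with wild type mice given the same control vector, with 2 libraries per group. In the last table, R6/1 mice given an AAV carrying Elk-1, a transcription factor of the ETS family (4 libraries), were compared with those same control-AAV R6/1 libraries. The labels give neither the allele of the CHL2 line nor the promoter, dose or injection age of the vectors, and do not tell how many animals stand behind a group's libraries. The p-values of the authors' deposited tables therefore measure the spread among the sequenced libraries alone, and that spread may be technical.

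Ribosomal proteins are made in near equal numbers and assembled with ribosomal RNA into a small subunit, which reads the messenger RNA, and a large subunit, which joins the amino acids. The P stalk (Rplp0, Rplp1 and Rplp2) is the arm of the large subunit that recruits the factors driving each step of translation. The messenger RNAs of ribosomal proteins are short, abundant and long-lived. In vertebrates many begin with a C followed by a run of pyrimidines (a 5′ terminal oligopyrimidine tract, or TOP), through which mTOR signalling sets how actively they are translated. Many of the genes host small nucleolar RNAs in their introns, and mammalian genomes hold many processed pseudogenes copied from their messenger RNAs.

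The authors' deposited tables hold 1 FPKM value (fragments per kilobase of transcript, scaled to the library's mapped fragments) per group and gene, computed over the pooled libraries, so no value has an SD and the depth of each library is unknown. Because FPKM is per length, levels of different genes can be set side by side. Sequence shared with other genes makes this uncertain for many members, as described below. The words rose and fell are kept for genes whose q-value (the p-value adjusted over the rows of the table) in the authors' deposited table was below 0.05. Striatal identity was checked with 12 projection neuron markers, all listed in every table, whose summed FPKM in the authors' deposited tables lay between 1197 and 3415 over the groups. Of these 12 markers, 2 fell in R6/1 at 4 weeks, 11 in R6/1 at 8 weeks, 11 in CHL2 and 9 in control-AAV R6/1, each against its wild type group. Elk-1-AAV R6/1 was compared with control-AAV R6/1 instead, and there 0 fell and 0 rose (summed FPKM 1479 and 1226, in that order). Elk1 itself rose in the authors' deposited table, to 30.1 FPKM with the Elk-1 vector against 15.1 FPKM with the control vector (q = 0.0122). In whole tissue, fewer cells of a type and less RNA per cell cannot be told apart.

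The members spanned a wide range of levels within every group. At 8 weeks the authors' deposited table gave FPKM values between 0.534 and 308 in R6/1 and between 0.000303 and 324 in wild type. Averaged over the authors' deposited FPKM of the 9 groups, which come from separately processed tables, the highest member was Rpl8, a large-subunit protein near the catalytic centre, at 424 (lowest group 296, highest group 660). Rplp1 of the P stalk stood at 409 (308 to 555). Other high members were Rps21 of the small subunit at 282 (236 to 402), Rpl4, whose protein lines the exit tunnel, at 279 (247 to 312), and Rps15 at 240 (123 to 475). The group ranges of these members overlap, so their order is a description. At the other end were Rps7 at 1.88, Rpl12 at 1.82, Rpl10 at 1.19, Rpl10a at 1.03 and, in the 4 groups that list it, Rpl24 at 0.685, all in authors' deposited FPKM. At 8 weeks, 20 members stood below 5 FPKM in R6/1 and 20 in wild type in the authors' deposited values, although every ribosome holds 1 copy of most of these proteins.

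The start of the transcript is shown for the members of high level that have an entry in RefSeq (GRCm38.p6), because the pyrimidine run there is what marks a TOP messenger RNA. Beside them are 2 mitochondrial ribosomal protein genes. Each window holds 10 bases before the RefSeq start and 20 from it on, read 5′ to 3′ on the gene's strand. Capitals mark a C followed by at least 4 pyrimidines that begins within 10 bases of the start. Both mitochondrial genes hold such a run, while Rpl4 and Rps15 hold none. The starts used in striatum were not measured, so a window alone does not tell whether a gene's messenger RNA is a TOP one.
Rps21, chr2:180257369-180257398, plus strand: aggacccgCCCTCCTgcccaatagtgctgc
Rpl4, chr9:64173377-64173406, plus strand: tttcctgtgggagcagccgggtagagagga
Rps15, chr10:80292421-80292450, plus strand: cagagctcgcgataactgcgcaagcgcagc
Rps12, chr10:23787190-23787219, minus strand: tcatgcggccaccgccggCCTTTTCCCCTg
Rpl13a, chr7:45128726-45128755, minus strand: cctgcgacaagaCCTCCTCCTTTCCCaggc
Rps9, chr7:3704031-3704060, plus strand: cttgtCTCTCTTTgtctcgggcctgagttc
Mrpl20, chr4:155802868-155802897, plus strand: ttcggaagagctgtcagtgCTCTTaaccct
Mrpl52, chr14:54426899-54426928, plus strand: gggccacgcccaCTTCCggttcccttgctc
Such a run stood at the start of 36 of the 59 members with a RefSeq window (61.0%), of 31 of 67 mitochondrial ribosomal protein genes (46.3%) and of 3863 of 10433 listed genes (37.0%). The ETS-type sequence CCGGAAG, on either strand of the 300 bases around the start, was found for 25 of 59 members (42.4%), 24 of 67 mitochondrial ribosomal protein genes (35.8%) and 1833 of 10433 listed genes (17.6%). Shorter or other ETS sequences were not counted. Both are matches of letters in these windows only and say nothing of binding.

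Most members share sequence with other annotated genes. Of the stretches of 50 bases in its longest coding transcript (GENCODE M21), a median of 41.8% over 79 members also occur in another annotated gene, and 78 of the 79 share at least 1 such stretch with a pseudogene, a median of 8 pseudogenes each. For 76 mitochondrial ribosomal protein genes the median was 0%, and 27 of them share a stretch with a pseudogene. The first 60 coding bases of 2 members and of a pseudogene of each show how alike such copies are, with capitals marking where the pseudogene differs from its parent gene.
Rps18, chromosome 17: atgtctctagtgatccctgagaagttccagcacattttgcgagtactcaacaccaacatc
Rps18-ps1, chromosome 4: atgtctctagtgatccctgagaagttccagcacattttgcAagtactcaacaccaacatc
Rpl23a, chromosome 11: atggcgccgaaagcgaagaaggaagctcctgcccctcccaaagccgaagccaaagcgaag
Rpl23a-ps1, chromosome 1: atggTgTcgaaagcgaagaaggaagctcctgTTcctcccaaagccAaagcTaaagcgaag
Over these bases Rps18-ps1 differs from Rps18 at 1 base and Rpl23a-ps1 from Rpl23a at 6. Rps18, with 86.7% of its stretches shared, the highest share of any member, stood at 1.75 FPKM in R6/1 and 2.19 FPKM in wild type at 8 weeks in the authors' deposited table. Other strongly copied members stood high there: in wild type Rpl23a (82.6% shared) was at 244 FPKM and Rps2 (71.3% shared) at 188 FPKM. Over 77 members, Spearman's rho between the share copied and the mean FPKM of the authors' deposited 8-week table was -0.20, and in the other 4 tables it lay between -0.24 and -0.41 over 75 to 78 members. In the 8-week table the 22 members with under 30% shared had a median FPKM of 37.3. The 35 members with 30 to 60% shared had 16.8, and the 20 members with at least 60% shared had 20.1. The medians of these classes, in the same order, were 59.6, 12.8 and 14.9 in the control-AAV genotype table. They fell at each step in the other tables: 40.7, 15.9 and 12.7 at 4 weeks, 67.6, 22.2 and 14.3 in the CHL2 table, and 74.6, 15.4 and 11.6 in the Elk-1 table. These points come from the same libraries, and how the authors' pipeline counted reads that fit several places is not given in the sources used here, so the levels of the copied members are uncertain.

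**Figure D1:**
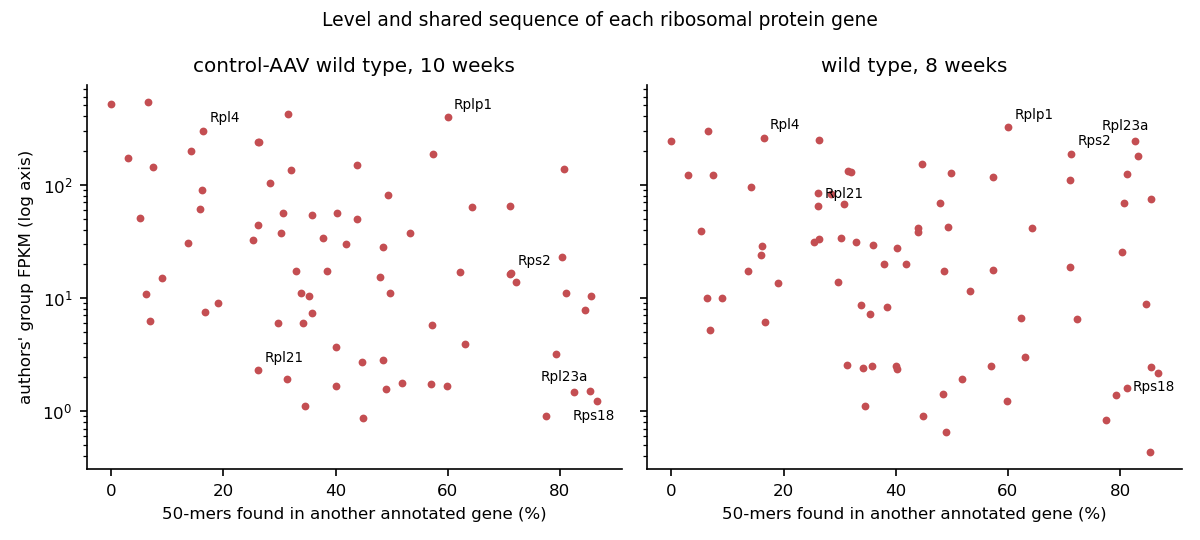
Level of each ribosomal protein gene (authors' deposited group FPKM, log axis) against the percentage of its 50-base stretches found in another annotated gene. Each point is a gene, in control-AAV wild type at 10 weeks (left) and wild type at 8 weeks (right); Rpl4 is among the highest in both, while Rpl23a is near 1.48 FPKM in the left panel and near 244 FPKM in the right.

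In R6/1 striatum at 4 weeks the median of the members lay slightly below wild type, and none was called. Of 79 listed members 0 fell and 0 rose at the Cuffdiff q-values of the authors' deposited table, where 0.193% of 14539 rows fell and 0.275% rose. Over the members with a mean of at least 0.5 FPKM in both groups together, here all 79, the median difference in log2(FPKM + 1) was -0.12 (quartiles -0.18 and -0.034) against 0.0012 over all genes. Set against other genes of the same transcript length it was -0.044. It was -0.027 when those other genes were limited to at least 20 FPKM, with all 79 members kept. Before that correction, 66 of the 79 members were negative (83.5%, against 49.5% of all genes). All 41 members with a mean of at least 20 FPKM were negative, between -0.32 and -0.034. Members of the small subunit had a median of -0.15 with 27 of 30 negative, those of the large subunit -0.10 with 33 of 42 negative, and the 3 genes of the P stalk -0.087.

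At 4 weeks 2 members had an unadjusted p below 0.05, both of the small subunit and both lower, beside 2.1% of all rows lower and 3.26% higher. Rps14 was one, at 91.9 FPKM in R6/1 and 110 FPKM in wild type in the authors' deposited table (q = 0.721). The largest folds belonged to members of low level: Rps10 at 1.52 FPKM in R6/1 and 2.20 FPKM in wild type, and Rpl28 at 1.31 FPKM in R6/1 and 0.854 FPKM in wild type, in the authors' deposited table. Their q was 0.999 each. The members held 1.26% of the summed FPKM in R6/1 and 1.37% in wild type, with rows for microRNAs and small nucleolar RNAs left out. Beside this, 2 of the 6 hypothalamic markers listed fell (summed FPKM 42.9 in R6/1 and 103 in wild type in the authors' deposited table), and their part in the member values was not tested.

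In R6/1 at 8 weeks, when 11 of the 12 projection neuron markers fell, the median of the members stood close to 0. Of 79 listed members 0 fell and 0 rose by Cuffdiff, while 5.34% of 14320 rows fell and 0.789% rose in the authors' deposited table. The median difference over 78 members was -0.0088 (quartiles -0.075 and 0.10) against 0.0059 over all genes, with 40 negative and 38 positive, and it was 0.069 after scaling to equal sums of the other genes. Only Rpl18, a large-subunit protein, had an unadjusted p below 0.05, at 31.5 FPKM in R6/1 and 23.8 FPKM in wild type (log2 fold change 0.40, q = 0.245). Among all rows of the authors' deposited table, 10.4% were lower and 3.86% higher at that p. 

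Low members again had the largest folds at 8 weeks. In the authors' deposited table Rps27a, made as a fusion with ubiquitin, stood at 1.43 FPKM in R6/1 and 2.50 FPKM in wild type (log2 fold change -0.81, q = 0.381). Rps29 of the small subunit stood at 4.49 FPKM in R6/1 and 2.52 FPKM in wild type (log2 fold change 0.83, q = 0.439) there. The 3 P stalk genes lay close together, with Rplp0 at 18.2 FPKM in R6/1 and 20.03 FPKM in wild type, Rplp1 at 308 and 324 FPKM, and Rplp2 at 66.1 and 67.8 FPKM, in the same group order, in the authors' deposited table. The member share of summed FPKM was 1.29% in R6/1 and 1.23% in wild type. Of 6 choroid plexus markers 5 fell (summed FPKM 587 in R6/1 and 1512 in wild type), and 4 of 5 cortical excitatory markers fell (196 in R6/1 and 313 in wild type), in the authors' deposited table. Their part in the member values was not tested.

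CHL2 striatum at 1 year held the only members called lower in any table. Rps12, Rps20 and Rpl38 fell and 0 members rose, of 78 listed, while 1.97% of 14402 rows fell and 1.67% rose in the authors' deposited table. The median difference over 77 members was -0.22 (quartiles -0.30 and -0.095) against 0.0021 over all genes, -0.14 after scaling to equal sums of the other genes and -0.099 set against genes of the same transcript length. Of these members 62 were negative (80.5%, against 49.5% of all genes), and of the 44 with a mean of at least 20 FPKM 42 were negative. At an unadjusted p below 0.05, 23 members were lower (29.5%) and 1 was higher (1.28%), beside 6.52% and 6.75% of all rows of the authors' deposited table.

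Rps12 is a small-subunit protein known in Drosophila for its part in cell competition between cells with different ribosomal protein doses. The authors' deposited table lists it on mm9 chromosome 10 between positions 23504988 and 23507015, where it shares its position with Snora33 and Snord100, and 83.2% of its 50-base stretches occur elsewhere, so its reads are uncertain. It stood at 251 FPKM in CHL2 and 331 FPKM in wild type in the authors' deposited table (log2 fold change -0.40, q = 0.0275). At 8 weeks the authors' deposited table gave 177 FPKM in R6/1 and 178 FPKM in wild type, and at 4 weeks 187 FPKM in R6/1 and 208 FPKM in wild type. 

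Rps20, another small-subunit protein (chromosome 4, positions 3761619 to 3762747), stood at 158 FPKM in CHL2 and 206 FPKM in wild type in the authors' deposited table (log2 fold change -0.38, q = 0.0494). Its longest coding transcript, of 3706 bases, shares 7.44% of its stretches with 31 other genes, 4 of them pseudogenes. That share is over the whole of this long transcript, and Rps20 also hosts the small nucleolar RNA Gm24016, so its reads too are uncertain. Rpl38 is a large-subunit protein known in mouse for its part in translating Hox messenger RNAs (chromosome 11, positions 114529856 to 114533645). It stood at 46.1 FPKM in CHL2 and 69.9 FPKM in wild type in the authors' deposited table (log2 fold change -0.60, q = 0.0366), the lowest fold among members of more than 20 FPKM. At 4 weeks the authors' deposited table gave Rpl38 24.4 FPKM in R6/1 and 30.7 FPKM in wild type, and at 8 weeks 30.9 FPKM in R6/1 and 27.6 FPKM in wild type, neither called.

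Just outside the threshold in CHL2 lay further members of the small subunit, which pass at q below 0.1. Rps19, which is mutated in human Diamond-Blackfan anaemia, stood at 27.0 FPKM in CHL2 and 38.3 FPKM in wild type in the authors' deposited table (q = 0.0549). Rps14 stood at 140 FPKM in CHL2 and 179 FPKM in wild type in the authors' deposited table (q = 0.0759). Rps21 stood at 316 FPKM in CHL2 and 402 FPKM in wild type there (q = 0.0834). By role, the medians in CHL2 were -0.25 for the small subunit (26 of 30 negative), -0.19 for the large subunit (31 of 40 negative) and -0.31 for the P stalk.

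The P stalk genes illustrate the size of these differences. Rplp1 stood at 427 FPKM in CHL2 and 529 FPKM in wild type in the authors' deposited table (log2 fold change -0.31, q = 0.117). Rplp2 stood at 64.8 FPKM in CHL2 and 85.3 FPKM in wild type there (q = 0.148), and Rplp0 had a log2 fold change of -0.29 (q = 0.319). Rpsa, whose protein also serves as a laminin receptor, stood at 51.1 FPKM in CHL2 and 60.5 FPKM in wild type in the authors' deposited table (q = 0.321). The only member higher at an unadjusted p below 0.05 was Rps15a, at 15.1 FPKM in CHL2 and 12.7 FPKM in wild type (q = 0.320), in the authors' deposited table. All of them together held 1.52% of the summed FPKM in CHL2 and 1.72% in wild type.

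Markers of other tissue differed in CHL2 as well, and their part in the member values was not tested. Of 6 hypothalamic markers 5 rose (summed FPKM 161 in CHL2 and 68.2 in wild type), 2 of 7 oligodendrocyte markers fell (3239 in CHL2 and 4696 in wild type) and 2 of 5 blood markers fell (33.9 in CHL2 and 72.3 in wild type), in the authors' deposited table. None of the markers listed for these tissues, here or in the other comparisons, stood at 0. Not all were listed everywhere: the 10-week tables list 5 of 6 hypothalamic markers, and the Elk-1 table lists 4 of 5 blood markers. An unlisted marker has no value here, so the values do not tell whether each tissue was present in every group.

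**Figure D2:**
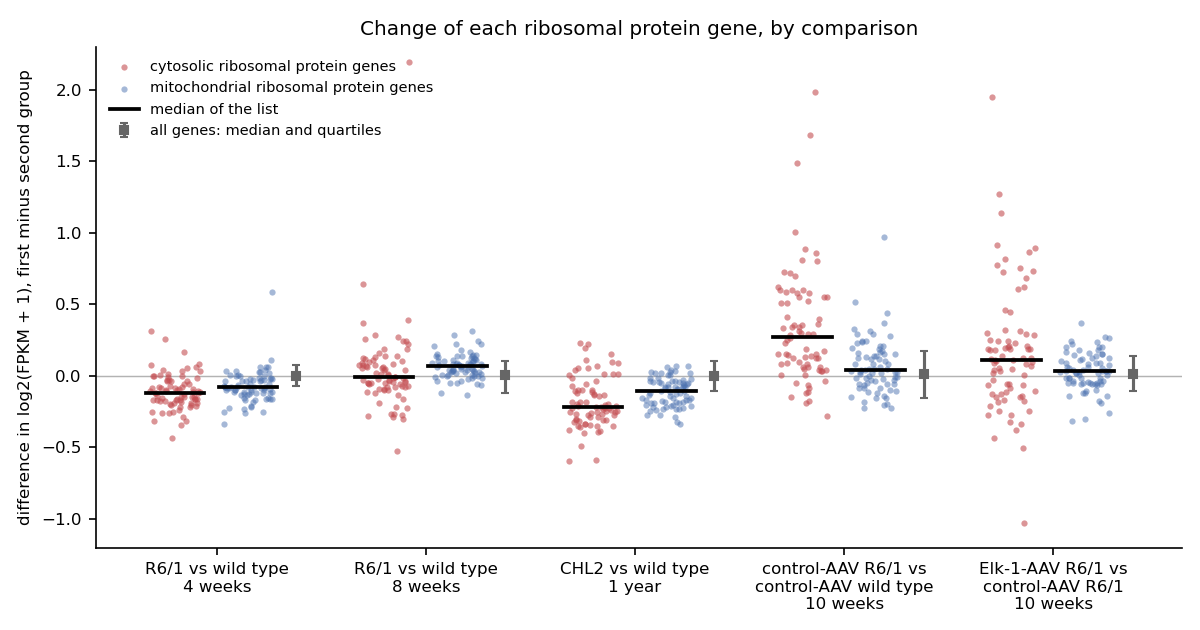
Difference in log2(FPKM + 1) of every ribosomal protein gene with a mean of at least 0.5 FPKM in each of the 5 comparisons, first group minus second, computed from the authors' deposited group values. Points are genes (red cytosolic, blue mitochondrial), bars are list medians, and grey squares with whiskers are the median and quartiles of all genes; the cytosolic medians run from -0.22 in CHL2 to 0.27 in control-AAV R6/1. Rpl26 lies above the axis in control-AAV R6/1 (3.79).

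In control-AAV R6/1 at 10 weeks the members stood above control-AAV wild type, again with none called. Of 76 listed members 0 fell and 0 rose by Cuffdiff, while 2.51% of 12980 rows fell and 0.724% rose in the authors' deposited table. The median difference was 0.27 (quartiles 0.066 and 0.56) against 0.014 over all genes, and 66 members were positive (86.8%, against 52.4% of all genes). It was larger among members of low level: 0.51 over the 39 members with a mean below 20 FPKM and 0.15 over the 37 at or above it. It was also 0.45 over the 18 members with at least 60% of their stretches copied elsewhere, and 0.12 over the 22 with under 30%. The authors' deposited table put 11 members below 5 FPKM in control-AAV R6/1 and 19 in control-AAV wild type.

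Members higher at an unadjusted p below 0.05 were 4 of the small subunit (5.26%, beside 3.88% of all rows), and 0 were lower (beside 6.8%). Rps19 stood at 54.3 FPKM in control-AAV R6/1 and 32.6 FPKM in control-AAV wild type in the authors' deposited table (log2 fold change 0.73, q = 0.209). Rps25 stood at 66.9 FPKM in control-AAV R6/1 and 43.8 FPKM in control-AAV wild type there (q = 0.415). Rps9 stood at 264 FPKM in control-AAV R6/1 and 198 FPKM in control-AAV wild type in the authors' deposited table (q = 0.385). Rps18 stood at 6.14 FPKM in control-AAV R6/1 and 1.22 FPKM in control-AAV wild type there (log2 fold change 2.33, q = 0.378). Rps19, nearest to the threshold here with a positive fold, had a negative one in CHL2, and neither was called.

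The members' share of summed FPKM was 1.35% in control-AAV R6/1 and 1.15% in control-AAV wild type. In the same comparison, 4 of 6 choroid plexus markers rose (summed FPKM 1583 in control-AAV R6/1 and 346 in control-AAV wild type), as did 4 of the 5 hypothalamic markers listed (353 and 65.1 FPKM, in the same group order). Also in the authors' deposited table, 4 of 5 cortical excitatory markers fell (310 FPKM in control-AAV R6/1 and 587 FPKM in control-AAV wild type), and 2 of 4 general neuron markers, Snap25 and Syt1, fell (1724 FPKM summed over the list in control-AAV R6/1 and 2673 FPKM in control-AAV wild type). Their part in the member values was not tested. Small RNA rows held 18.6% of the summed FPKM in control-AAV R6/1 and 12.7% in control-AAV wild type, and counting them in the sum brought the difference in the members' share to 0.10 percentage points, beside 0.21 without them.

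With the Elk-1 vector 1 member, Rps14, rose and 0 fell of 79 listed, while 0.299% of 12701 rows rose and 0.276% fell in the authors' deposited table. Rps14 is a small-subunit protein known in humans for the anaemia that follows loss of a gene copy. It stood at 174 FPKM in Elk-1-AAV R6/1 and 108 FPKM in control-AAV R6/1 in the authors' deposited table (log2 fold change 0.69, q = 0.0215). In the genotype table at 10 weeks the authors' deposited values were 105 FPKM in control-AAV R6/1 and 102 FPKM in control-AAV wild type. Rps14 shares 28.4% of its stretches with other genes and shares its listed position with none.

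The other members showed a median difference with the Elk-1 vector that was small beside their scatter. Over all 79 it was 0.11 (quartiles -0.11 and 0.29) against 0.013 over all genes, 0.059 after scaling to equal sums of the other genes and 0.052 set against genes of the same transcript length, with 52 members positive and 27 negative. At an unadjusted p below 0.05, 5 members were higher (6.33%, beside 2.61% of all rows) and 0 were lower (beside 2.3%). Rpl11, which with Rpl5 and a small ribosomal RNA binds Mdm2 and so stabilises p53, stood at 40.4 FPKM in Elk-1-AAV R6/1 and 26.2 FPKM in control-AAV R6/1 in the authors' deposited table (q = 0.908). Rpl5 stood at 30.8 FPKM in Elk-1-AAV R6/1 and 27.9 FPKM in control-AAV R6/1 there. The rest were low: Rpl19 at 12.3 and 6.92 FPKM, Rps7 at 4.94 and 2.25 FPKM, and Rpl36 at 7.57 and 1.22 FPKM, with the Elk-1 vector first and the control vector second, in the authors' deposited table.

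Member share of summed FPKM was 1.42% with the Elk-1 vector and 1.35% with the control vector. With small RNA rows counted in the sum, which held 28.1% with the Elk-1 vector and 17.2% with the control vector, this difference of 0.068 percentage points became -0.098. In this comparison, 3 of 8 microglial markers rose (C1qa, C1qb and C1qc; summed FPKM of the list 444 with the Elk-1 vector and 276 with the control vector in the authors' deposited table). Of 5 hypothalamic markers 3 fell (32.6 FPKM with the Elk-1 vector and 362 FPKM with the control vector), and 1 of 6 choroid plexus markers rose (2303 and 1622 FPKM, in the same group order). Their part in the member values was not tested. This table and the genotype table share the control-AAV R6/1 libraries, so their differences are not independent.

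**Figure D3:**
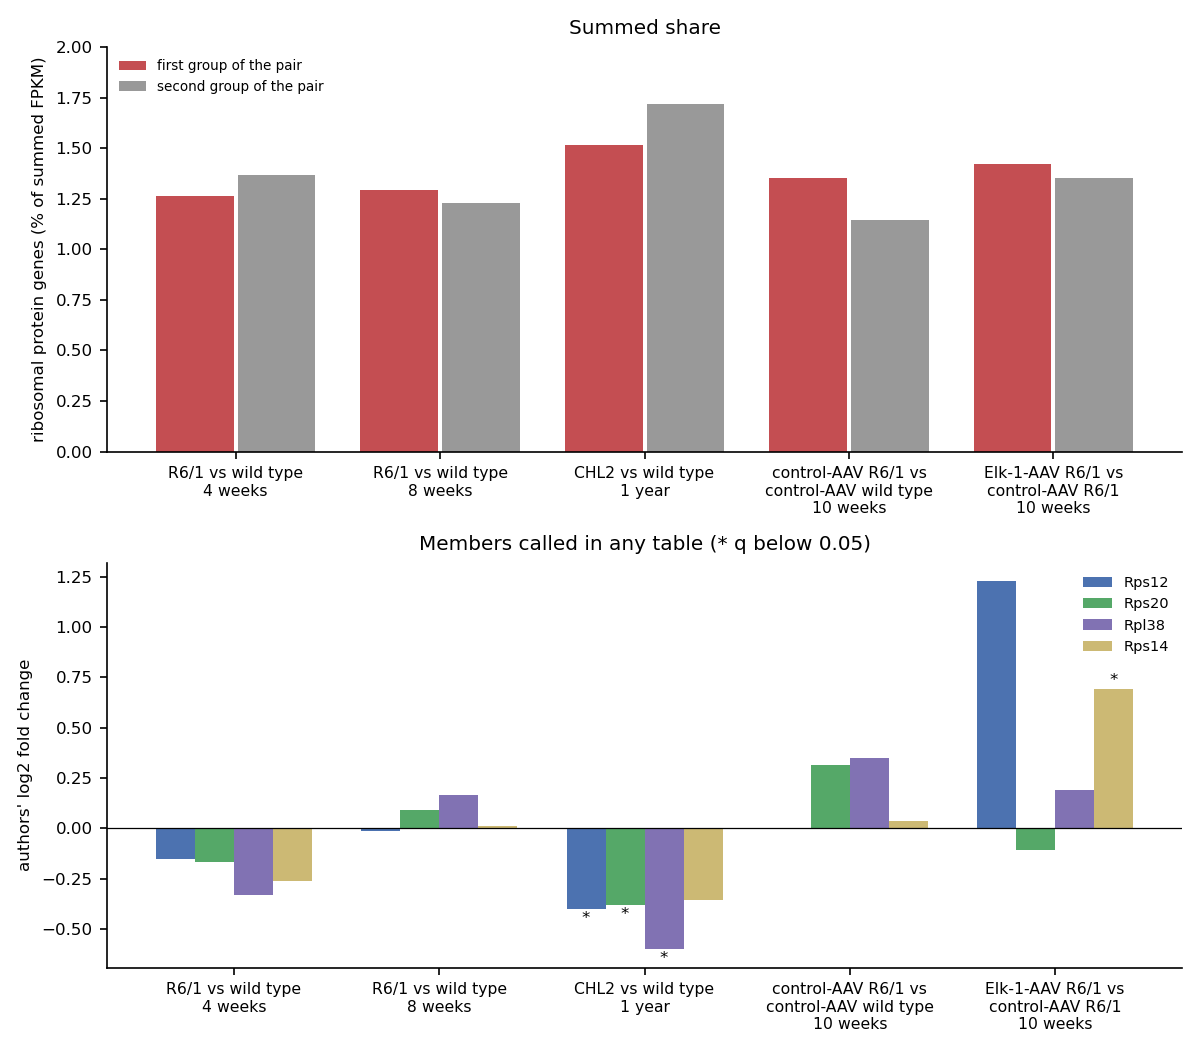
Top, percentage of the summed FPKM (authors' deposited values, small RNA rows left out) held by the ribosomal protein genes in the first group (red) and second group (grey) of each pair, between 1.15% and 1.72%. Bottom, the authors' deposited log2 fold change, first group over second, of the 4 members called in any table, with a star where q is below 0.05; Rps12 is not listed in the table of control-AAV R6/1 against control-AAV wild type.

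No paralog was called in any table. Rps27l, a p53-responsive copy of Rps27, stood at 20.5 FPKM in CHL2 and 24.4 FPKM in wild type in the authors' deposited table, above Rps27 itself at 5.43 FPKM in CHL2 and 4.50 FPKM in wild type. Rpl22l1 stood at 9.29 FPKM in CHL2 and 9.22 FPKM in wild type there, below Rpl22 at 43.3 FPKM in CHL2 and 46.4 FPKM in wild type. Rpl7l1 stood at 13.1 FPKM in CHL2 and 12.4 FPKM in wild type in the authors' deposited table, beside Rpl7 at 13.1 FPKM in CHL2 and 14.99 FPKM in wild type. In each of these pairs 1 partner shares far more of its 50-base stretches with other genes. The shares are 13.7% for Rps27l and 63.1% for Rps27, and 57.3% for Rpl22l1 and 5.2% for Rpl22. For Rpl7l1 the share is 9.03% and for Rpl7 53.3%. The level of the more copied partner is uncertain, so the order within a pair is too. The row named Rps4y2 stood at 20.6 FPKM in CHL2 and 22.6 FPKM in wild type there, beside Rps4x at 4.25 FPKM in CHL2 and 4.95 FPKM in wild type, but it shares its listed position with Ergic2, Far2 and Tmtc1 and cannot be read as 1 gene.

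Several other members, most of them picked for a known role or use, were likewise not called in any table. Rps6, the substrate of S6 kinase downstream of mTOR, stood at 9.99 FPKM in CHL2 and 12.1 FPKM in wild type in the authors' deposited table. Rps3, which lines the entry of the messenger RNA channel, stood at 140 FPKM in CHL2 and 162 FPKM in wild type there. Rpl13a, known in human monocytes for silencing inflammatory transcripts, stood at 175 FPKM in CHL2 and 214 FPKM in wild type in the authors' deposited table (q = 0.160). Rpl10a, the protein tagged for ribosome purification in mouse translational profiling, stood at 0.754 FPKM in CHL2 and 0.623 FPKM in wild type there. Rpl26, a large-subunit protein, was estimated at close to 0 in some groups and not in their partners: in the authors' deposited tables it stood at 3.58 FPKM in R6/1 and 0.000303 FPKM in wild type at 8 weeks, at 0.000376 FPKM in CHL2 and 0.773 FPKM in wild type, and at 12.9 FPKM in control-AAV R6/1 and 0.00116 FPKM in control-AAV wild type. None of these was called, and such values may be failed estimates.

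Ribosomal protein transcripts are short, and in some comparisons the change of the other genes followed transcript length. The longest annotated transcript of a member had a median of 1094 bases in the 4-week table, against 3424 bases over all genes, and 3 members were longer than the median gene. Across the other genes, which are not independent replicates, Spearman's rho between change and length was 0.48 at 4 weeks and 0.39 in CHL2. It was -0.11 at 8 weeks, -0.051 in control-AAV R6/1 and -0.17 with the Elk-1 vector, where short genes lay higher. Other genes of the members' middle lengths had a median difference of -0.070 at 4 weeks (1933 genes), -0.099 in CHL2 (2021 genes) and 0.062 with the Elk-1 vector (1689 genes).

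Set against genes of their own length, the members lay nearer to 0 at 4 weeks, in CHL2 and with the Elk-1 vector. Their median difference after centring on 20 bins of length was -0.044 at 4 weeks, beside -0.12 before, -0.099 in CHL2, beside -0.22, and 0.052 with the Elk-1 vector, beside 0.11. When the other genes in the bins were limited to a mean of at least 20 FPKM, the values were -0.027 at 4 weeks, -0.067 in CHL2 and 0.055 with the Elk-1 vector. That setting kept members of every level. Members with a mean of at least 20 FPKM had medians of -0.15 at 4 weeks, -0.25 in CHL2 and 0.10 with the Elk-1 vector. Other genes of that level and of the members' middle lengths had -0.086, -0.13 and 0.069, in the same order. For control-AAV R6/1, where the other genes showed little trend, other genes of the members' middle lengths had a median of 0.029 (1822 genes), beside 0.27 for the members. Within the members, rho between change and length was 0.20 at 4 weeks, 0.015 at 8 weeks, 0.12 in CHL2, -0.17 in control-AAV R6/1 and -0.25 with the Elk-1 vector.

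**Figure D4:**
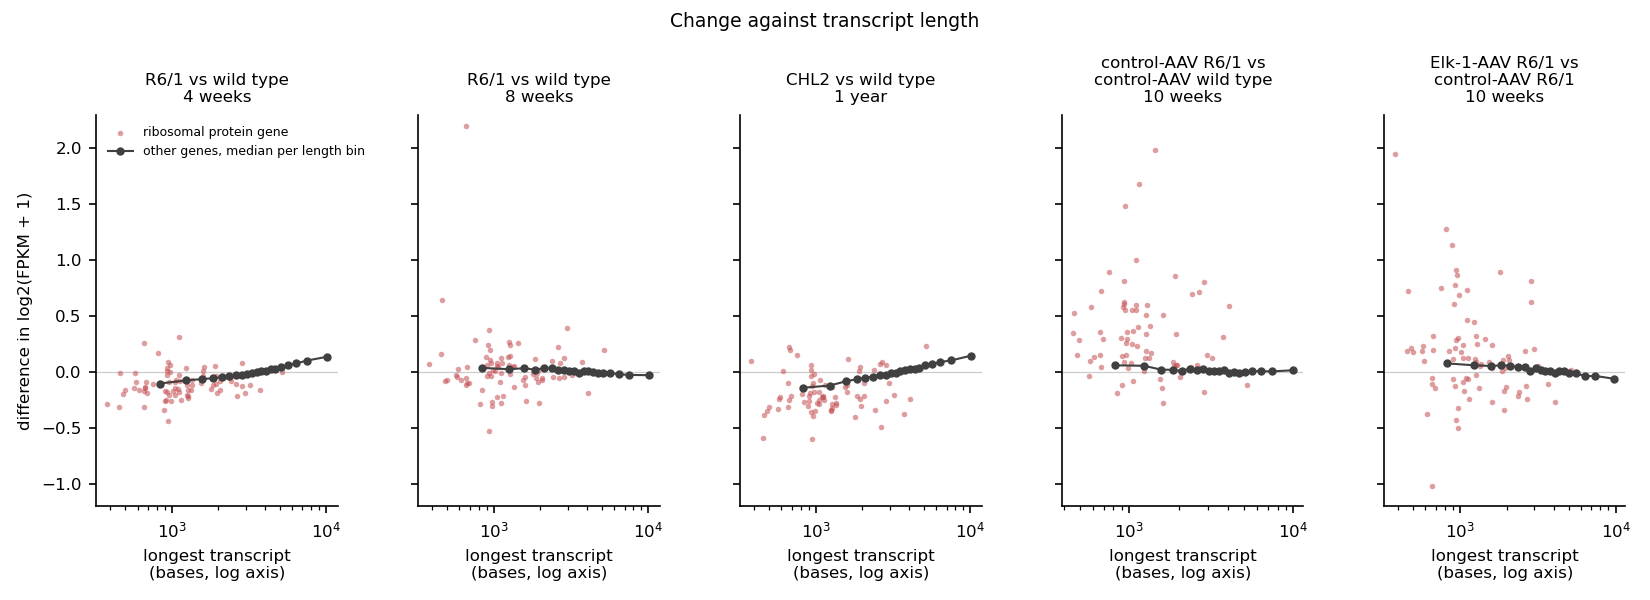
Difference in log2(FPKM + 1), first group minus second, against the longest annotated transcript (bases, log axis) in each comparison, computed from the authors' deposited group values. Red points are ribosomal protein genes and the dark line joins the medians of the other genes in 20 bins of length; the line climbs with length at 4 weeks and in CHL2, and the short ribosomal protein genes sit at its lower end. Rpl26 lies above the axis in control-AAV R6/1 (3.79).

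Fau and Rpl36al, which code for ribosomal proteins but fall outside the symbol rule, and Gnb2l1, the scaffold RACK1 on the small subunit, differed in the same direction as the median of the members in CHL2 and in control-AAV R6/1, with none called. In CHL2 their differences in log2(FPKM + 1) were -0.28, -0.41 and -0.16, in that order, and in control-AAV R6/1 they were 0.41, 0.32 and 0.10. The lists of TOP messenger RNAs and initiation factors had medians nearer to 0 than the members in these 2 comparisons, without correction for length. So did those of ribosome biogenesis, mTOR signalling and RNA polymerase I. Set against genes of their own length, the members' median was -0.099 in CHL2 and 0.22 in control-AAV R6/1. The lists were not set against genes of their own length, so how far they differ from the members apart from length was not tested. The medians below are differences in log2(FPKM + 1) in the order R6/1 at 4 weeks, R6/1 at 8 weeks, CHL2, control-AAV R6/1 and Elk-1-AAV R6/1, each against its own partner group. The 15 genes listed for TOP messenger RNAs, which are translation factors together with Hnrnpa1, Npm1, Naca, Btf3 and Tpt1, had -0.072, 0.0093, -0.086, 0.029 and 0.029. Whether their messenger RNAs are TOP ones was not checked here. The 24 initiation factor genes listed had -0.023, 0.013, -0.036, 0.0060 and 0.080. The 30 ribosome biogenesis genes had -0.013, 0.0091, -0.0038, -0.033 and 0.010.

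For 15 genes of mTOR and S6 kinase signalling the medians were 0.038, -0.0056, 0.061, -0.0040 and 0.088, and for 12 genes of RNA polymerase I -0.015, 0.027, 0.059, -0.033 and 0.063. Of the genes of all these lists, only Ubtf was called in any table. Ubtf codes for a factor that activates ribosomal RNA genes, and it fell to 25.6 FPKM in R6/1 at 8 weeks, against 34.8 FPKM in wild type, in the authors' deposited table (log2 fold change -0.44, q = 0.00673). Mitochondrial ribosomal protein genes, which share fewer stretches with other genes, had medians of -0.080 at 4 weeks (61 of 76 negative), 0.070 at 8 weeks (13 of 75 negative) and -0.11 in CHL2 (64 of 76 negative). Their medians were 0.039 in control-AAV R6/1 and 0.031 in Elk-1-AAV R6/1, and none was called in any table.

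The level of some members differs widely between the deposited tables. In control-AAV wild type at 10 weeks, set beside wild type at 8 weeks, 8 of 75 members (10.7%) were more than 4-fold lower and 0 more than 4-fold higher, against 38 of 12793 other genes (0.297%) that were lower and 0 of 75 mitochondrial ribosomal protein genes. These tables were processed separately and the groups differ in age and vector, so the comparison has no test. Rpl23a, whose protein sits at the exit of the tunnel, stood at 1.48 FPKM in control-AAV wild type and 244 FPKM in wild type at 8 weeks in the authors' deposited tables. Rpl17 stood at 2.70 and 154 FPKM, Rpl21 at 2.29 and 64.2 FPKM, and Rps2 at 16.4 and 188 FPKM, with control-AAV wild type first, in the authors' deposited tables.

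Rpl35a (11.1 and 126 FPKM), Rpl7a (a difference of -3.38 in log2(FPKM + 1)), Rpl3 (10.4 and 74.7 FPKM) and Rpl29 (15.3 and 68.6 FPKM) complete these 8, in the same group order and from the authors' deposited tables. Rps12 followed the same split, at 4.22 FPKM with the Elk-1 vector and 1.81 FPKM in control-AAV R6/1, against values between 177 and 331 FPKM in the 4-week, 8-week and CHL2 tables deposited by the authors. Of the 8 genes, 6 host an annotated small nucleolar RNA, as do 23 of the other 66 members with a gene span. The median difference over the 75 members was 0.28 in log2(FPKM + 1), beside 0.73 over 75 mitochondrial ribosomal protein genes and 0.083 over the other genes. The largest differences upward were those of Rpl41, at 149 FPKM in control-AAV wild type and 37.8 FPKM in wild type at 8 weeks, and Rps15, at 417 and 133 FPKM in the same order, in the authors' deposited tables. By contrast, the control-AAV R6/1 libraries appear in both 10-week tables, where every one of the 76 members differed by 0.033 to 0.036 in log2, beside a median of 0.034 over 12608 genes.

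**Figure D5:**
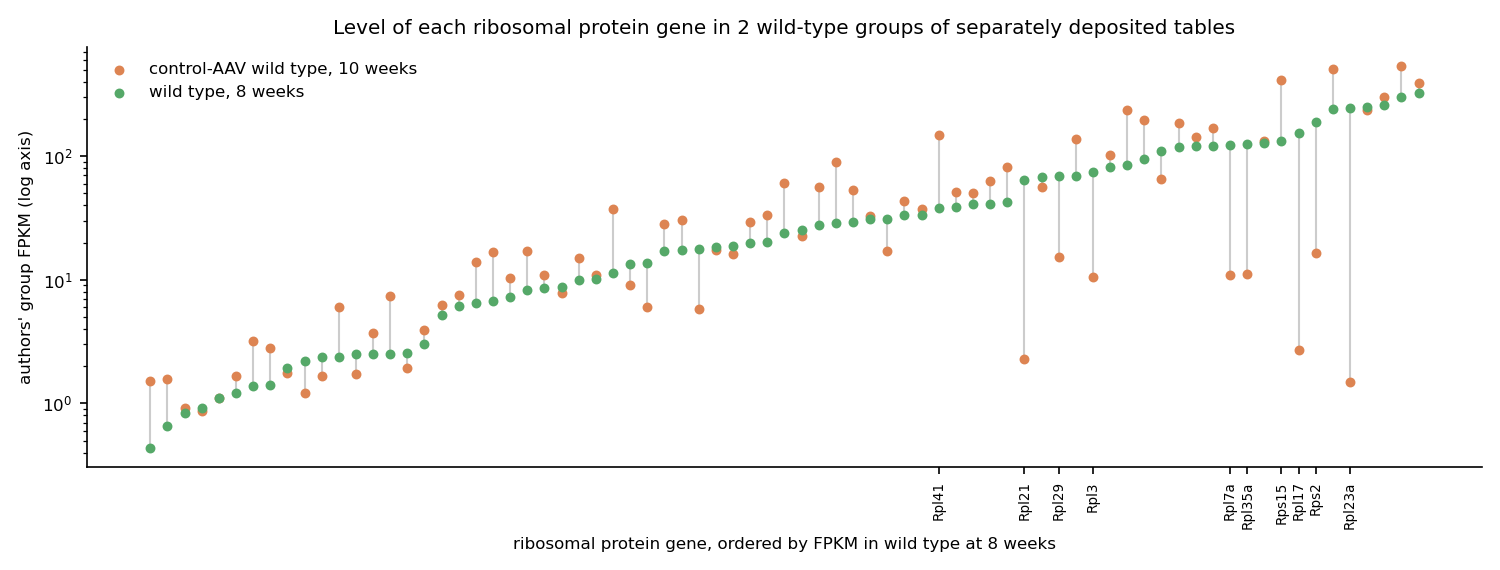
Authors' deposited group FPKM (log axis) of 75 ribosomal protein genes in control-AAV wild type at 10 weeks (orange) and in wild type at 8 weeks (green), from separately processed tables, ordered by the 8-week level, with 10 genes named. Grey lines join the values of a gene; the 8 longest drops run from Rpl29 (15.3 and 68.6 FPKM) to Rpl23a (1.48 and 244 FPKM).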

How the data were processed

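RNA was extracted with Trizol from striatum and sequenced after a TruSeq preparation from total RNA, per the labels' protocols. The mm9 genome and the tools Bowtie, TopHat, Cufflinks and Cuffdiff are named, without versions, per the submitters' processing notes; which annotation was used, and whether counting used strand, is not given in the sources used here. Deposited by the authors were 5 tables without headers, each holding 1 pooled FPKM value per group and gene, a log2 fold change, a test statistic (a score of their program, not used), a p-value and a q-value. Depth per library is unknown.

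Differences in log2(FPKM + 1) were computed for genes with a mean of at least 0.5 FPKM, without the rows of microRNAs and small nucleolar RNAs; the added 1 understates changes of low genes. Length correction subtracted the median of other genes in 20 bins of longest transcript (GENCODE M21). It was tried on simulated data with straight-line length trends and equal noise for all genes. The error allowed there was larger than most corrected medians given here, so that trial does not show their accuracy. GENCODE and RefSeq (both GRCm38) served only for lengths, shared 50-base stretches, hosted small nucleolar RNAs and sequences; mm9 positions are as listed, and their starts may count from 0 or from 1. Python 3.11.15 with numpy 2.4.6, pandas 2.3.3, scipy 1.17.1 and matplotlib 3.10.9 was used. The fits of limma and of a replicate block planned for values per library were not run.

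The symbol rule and the lists were set with earlier results of these data known, although within the rule the symbol alone decided membership. Named members are those called in any table, the 3 with the highest and the 3 with the lowest fold per table (mean of at least 1 FPKM; some are given by range), the highest and lowest levels, paralogs with their parent genes, the P stalk, Rpsa and members of special role; the 8 members that differ between tables, Rpl26 and those at an unadjusted p below 0.05 were chosen after their values were seen. Start windows were not found in RefSeq for some members of high level, among them Rpl8, Rplp1 and Rpl23a. Some items are not reported here.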

Additional observations from a re-analysis of the deposited data

How the results depend on the processing

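No paired analysis was possible because the tables hold 1 pooled value per group; for the same reason no library could be left out, and depth sets no interval. The alternatives on members above 20 FPKM, on members with under 30% of stretches shared and on median coding length were chosen after seeing the data. Median member differences in log2(FPKM + 1) are given beside the value in the report. At 4 weeks (-0.12) length correction gave -0.044, length correction against other genes of at least 20 FPKM -0.027 and median coding length -0.072. In CHL2 (-0.22) these gave -0.099, -0.067 and -0.14, and scaling to equal sums gave -0.14. At 8 weeks (-0.0088) they gave -0.032, -0.031 and -0.032, members above 20 FPKM gave -0.027, and the sign turned with a correction for expression level (0.0044), scaling to equal sums (0.069) and members with under 30% shared (0.012). In control-AAV R6/1 (0.27) members above 20 FPKM gave 0.15 and members with under 30% shared 0.12. With the Elk-1 vector (0.11) length gave 0.052, length against other genes of at least 20 FPKM 0.055, expression level 0.072 and scaling 0.059. The other 40 alternatives for a median kept its sign and left it within 1.5-fold of the reported value. Among them, in control-AAV R6/1, length correction gave 0.22 and scaling to equal sums 0.33. Counting small RNA rows changed the difference in share, in percentage points, from 0.062 to 0.027 at 8 weeks, from 0.21 to 0.10 in control-AAV R6/1 and from 0.068 to -0.098 with the Elk-1 vector, because those rows enter the sum. By construction, looser thresholds called more members: at q below 0.1, 7 lower in CHL2; at an unadjusted p below 0.05, 2 lower at 4 weeks, 1 higher at 8 weeks, 23 lower and 1 higher in CHL2, 4 higher in control-AAV R6/1 and 5 higher with the Elk-1 vector. For the medians that moved or turned, the cause was not tested.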
